A study of Mus musculus with 16 samples.

Results

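The genes described here were 10 members of the major histocompatibility complex (MHC) class I system: H2-K1, H2-D1, H2-Q4, H2-Q6, H2-Q7, H2-T23, B2m, Tap1, Psmb8 and Nlrc5. They were chosen by name, and for each the open-chromatin regions within its annotated span and 20 kb on either side were taken. This gave 61 distinct regions out of 122020 in the whole series, since H2-Q6 and H2-Q7 shared all 5 of their regions and Tap1 and Psmb8 shared 8. Open chromatin had been mapped by ATAC-seq, an assay that uses the transposase Tn5 to tag accessible DNA, in mouse hematopoietic progenitors labelled MPP, from animals 21 days old. There were 16 samples in 2 sets, recognised by their titles, and what distinguishes the sets is not given in the labels. The groups of set 1 were wild type, Runx1-het (heterozygous for the blood transcription factor Runx1), Flt3-ITD (a duplication within the receptor tyrosine kinase Flt3) and Flt3-ITD/Runx1-het. Those of set 2 were wild type, the fusion gene NUP98-HOXD13 known from leukaemia, Flt3-ITD, and the combination NUP98-HOXD13/Flt3-ITD. The labels name no strain, no promoter or line for the fusion gene, and no number of animals per sample. Each of the 8 groups had 2 samples but only 1 peak list, so no value below has a replicate error and no difference between genotypes could be tested.

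MHC class I molecules display peptides from inside the cell to CD8 T cells and natural killer cells. The heavy chain, encoded by the H2-K, H2-D, H2-Q and H2-T genes in the mouse, pairs with beta-2 microglobulin, the product of B2m. Peptides are cut by the proteasome, whose interferon-inducible subunits include Psmb8, and are carried into the endoplasmic reticulum by the transporter of which Tap1 is a subunit. Class I promoters carry a site for interferon regulatory factors, a site for NF-kappa B, and a module bound by RFX, CREB or ATF and NF-Y proteins. Nlrc5 is recruited to that module and activates the class I genes. Interferon raises the expression of nearly all of these genes, and haematopoietic progenitors express class I molecules.

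The DNA just upstream of 5 members is shown because these stretches lie in or beside the open regions described next, and because those of H2-Q6 and H2-Q7 are near copies. The sequences are from RefSeq, build GRCm38.p6, on the plus strand. H2-D1 is at chr17:35262844-35263093, H2-Q4 at chr17:35379367-35379616, H2-Q6 at chr17:35424600-35424849, H2-Q7 at chr17:35438905-35439139 and B2m at chr2:122147437-122147686. Capitals mark letters that match 1 of 5 motifs searched on both strands in the 250 bases before the annotated start. The motifs were GAANTGAAA and GAAANNGAA (forms of the interferon regulatory factor site), GGGNNTTCC (NF-kappa B), TGACG (core of the CREB or ATF site) and ATTGG (the NF-Y site, CCAAT on the other strand). TTTCACTTC is GAANTGAAA read on the other strand.
H2-D1: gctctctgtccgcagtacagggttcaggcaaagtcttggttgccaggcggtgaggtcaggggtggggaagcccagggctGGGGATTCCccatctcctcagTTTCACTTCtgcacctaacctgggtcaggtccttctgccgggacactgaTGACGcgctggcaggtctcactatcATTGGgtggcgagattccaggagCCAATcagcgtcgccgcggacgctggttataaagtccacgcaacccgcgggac
H2-Q4: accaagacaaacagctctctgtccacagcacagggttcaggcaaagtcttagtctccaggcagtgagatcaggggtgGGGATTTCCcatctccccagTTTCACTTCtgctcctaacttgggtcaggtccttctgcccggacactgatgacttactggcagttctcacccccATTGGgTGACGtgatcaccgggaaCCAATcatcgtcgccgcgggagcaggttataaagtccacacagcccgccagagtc
H2-Q6: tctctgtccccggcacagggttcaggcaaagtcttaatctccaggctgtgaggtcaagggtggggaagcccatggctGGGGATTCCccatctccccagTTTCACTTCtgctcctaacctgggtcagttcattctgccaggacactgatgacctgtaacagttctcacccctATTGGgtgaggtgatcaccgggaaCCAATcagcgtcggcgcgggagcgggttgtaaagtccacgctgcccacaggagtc
H2-Q7: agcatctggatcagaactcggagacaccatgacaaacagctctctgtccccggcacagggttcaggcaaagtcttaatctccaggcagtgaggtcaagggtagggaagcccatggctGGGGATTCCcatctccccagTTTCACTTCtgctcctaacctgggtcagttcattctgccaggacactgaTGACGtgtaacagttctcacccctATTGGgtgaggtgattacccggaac
B2m: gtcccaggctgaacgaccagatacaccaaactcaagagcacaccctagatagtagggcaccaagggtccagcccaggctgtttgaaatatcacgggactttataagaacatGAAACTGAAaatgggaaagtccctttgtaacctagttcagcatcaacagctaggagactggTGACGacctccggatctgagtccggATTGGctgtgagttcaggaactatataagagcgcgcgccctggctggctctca

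The table of promoters held 9 of the 10 members, all but Nlrc5. GAANTGAAA was found in 5 of the 9 (H2-K1, H2-D1, H2-Q4, H2-Q6 and H2-Q7) and in 1.501% of all 32851 promoter windows. The same 5 genes held GGGNNTTCC, found in 4.98% of all windows. GAAANNGAA was found in B2m and H2-T23, against 7.13% of all windows. TGACG was found in 6 members, all but H2-Q6, H2-T23 and Psmb8, against 17.8% of windows, and ATTGG in all but Psmb8, against 33.8%. In H2-Q4 the TGACG match began 73 bp before the start and lay downstream of ATTGG, which began at 79 bp, whereas in H2-D1 TGACG began at 101 bp and lay upstream of ATTGG at 76 bp. Aligned over their full windows of 250 bases before the start, H2-Q6 and H2-Q7 were identical at 205 of 211 aligned positions (97.2%), with a longest identical run of 66 bp. The printed H2-Q7 stretch has 235 bases, since it ends at the low end of the annotated span, so the last aligned bases and a CCAAT match that begins 16 bp before the start are not shown whole. Counted from 1 at the 5′ end of the printed H2-Q6 stretch, the substitutions were T47A, G62A, C152G, C187T and G191C, with H2-Q6 given first, plus 1 gap at position 85. C152G turns TGACC of H2-Q6 into the TGACG of H2-Q7. Other pairs among H2-K1, H2-D1, H2-Q4, H2-Q6 and H2-Q7 were 77.3% to 87.4% identical. These matches describe letters only, and the sources used here do not say how the authors placed reads that align to several copies, so values at H2-Q genes are uncertain.

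A region over the start site was held by all 8 lists for 9 of the 10 members, and by 7 lists for H2-Q6. For Nlrc5, which had no start-site entry, the region over the low-coordinate end of the span was used. Over all 17492 protein-coding genes with an entry, which leaves out Nlrc5, 57.4% had such a region in all 8 lists. Each peak carries a fold enrichment over local background and a −log10 p, both the authors' values from 1 pooled peak call per group, and the highest fold among a region's peaks is given. Its rank is given as the percentage of the list's peaks that had an equal or higher −log10 p, so a small percentage is a strong peak. Ranks and folds of different lists are placed side by side as descriptions and cannot show whether genotypes differ. In set 2 the folds were lower in the 3 mutant lists than in wild type at most regions held by all 8 lists. This order was seen at 70.0% of the 10559 start-site regions among them and at 77.4% of the 31067 others. The same order at a member region held by all 8 lists is therefore the usual one. By the median rank over lists the order was B2m (3.88%), H2-K1 (4.16%), H2-Q4 (5.03%), Nlrc5 (5.44%), H2-D1 (8.70%), Tap1 (9.39%), H2-Q6 (13.6%, 7 lists), H2-Q7 (15.0%), H2-T23 (21.2%) and Psmb8 (25.2%). The ranges of the first 4 overlapped, and so did those of the last 4. Member regions over any annotated start site include those at starts of neighbouring genes, such as Cpne2, and leave out the Nlrc5 region. The median rank of those held by a list ran from 6.88% in set-2 wild type to 16.3% in set-1 wild type. The median rank of all start-site regions was 16.6% in set-2 Flt3-ITD and at most 12.3% in the other lists. The member median was weaker than it in set-1 wild type (16.3%, against 12.3%) and set-1 Flt3-ITD (13.1%, against 12.2%). It was also weaker in Runx1-het (12.95%, against 11.7%) and NUP98-HOXD13 (11.3%, against 10.5%). In the remaining lists the member median was the stronger, as in set-2 wild type (6.88%, against 12.05%), which held 12 of these member regions and lacked that of H2-Q6.

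**Figure D1:**
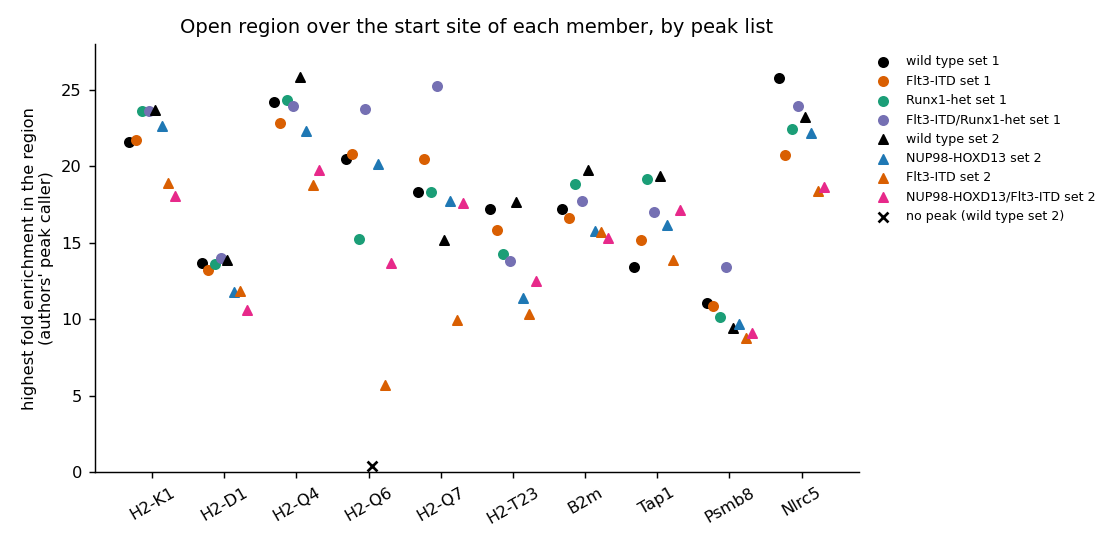
Highest fold enrichment (y axis, the authors' value) in the region over the start site of each member (x axis) in the 8 peak lists, with circles for set 1, triangles for set 2 and a cross where no peak was listed. H2-Q6 is the only member with a list at no peak, and its set-2 Flt3-ITD value, 5.69, is the lowest fold plotted. The height of the cross carries no value.

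H2-K1 encodes a classical class I heavy chain, which presents peptides to CD8 T cells. Its region (chr17:33999397-34000815, 1419 bp) had in set 1 a fold enrichment of 21.6 in wild type, 21.7 in Flt3-ITD, 23.6 in Runx1-het and 23.6 in Flt3-ITD/Runx1-het. In set 2 the values were 23.7 in wild type, 22.6 in NUP98-HOXD13, 18.9 in Flt3-ITD and 18.0 in NUP98-HOXD13/Flt3-ITD. The wild-type value lay at the low end of set 1 and at the high end of set 2, and every list ranked the peak in its top 6.56%. H2-K1 had 2 annotated starts, and distances were taken from the one at chr17:34000347, inside the span, which ends at 34000619. The peak summits fell 32 to 59 bp before that start in all 8 lists.

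H2-D1 encodes the other classical heavy chain among the members. Its region (chr17:35262569-35263425, 857 bp) had fold enrichments of 13.7 in set-1 wild type, 13.3 in Flt3-ITD, 13.6 in Runx1-het and 14.0 in Flt3-ITD/Runx1-het. In set 2 they were 13.9 in wild type, 11.8 in both NUP98-HOXD13 and Flt3-ITD, and 10.6 in NUP98-HOXD13/Flt3-ITD. The set-1 values lay close together, and the set-2 values had the usual order. A further region 3646 bp upstream of the span (chr17:35259078-35259448) was also held by all 8 lists, with fold enrichments of 9.40 to 11.4 and ranks of 8.14% to 17.5%.

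H2-Q4 encodes a nonclassical class I chain. The fold enrichment of its region (chr17:35379087-35380590, 1504 bp) was 24.2 in set-1 wild type, 22.9 in Flt3-ITD, 24.4 in Runx1-het and 23.96 in Flt3-ITD/Runx1-het. The set-2 lists gave 25.8 in wild type, 22.3 in NUP98-HOXD13, 18.8 in Flt3-ITD and 19.7 in NUP98-HOXD13/Flt3-ITD. All 8 lists ranked it in their top 8.18%.

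H2-Q6 and its neighbour H2-Q7 encode nonclassical chains of the Qa-2 type. The H2-Q6 region (chr17:35424587-35425404, 818 bp) had a fold enrichment of 20.5 in set-1 wild type, 20.8 in Flt3-ITD, 15.3 in Runx1-het and 23.7 in Flt3-ITD/Runx1-het. In set 2 it was 20.2 in NUP98-HOXD13, 5.69 in Flt3-ITD and 13.7 in NUP98-HOXD13/Flt3-ITD, and the wild-type list held no peak there. The nearest peaks of that list lay 34489 bp below and 9431 bp above. The rank was 10.03% to 22.1% in the other lists except set-2 Flt3-ITD, where it was 74.7%. Of all 122020 regions, 261 (0.214%) were missing from set-2 wild type alone, 14 of them over a start site, and H2-Q6 was the member among them. Under the stronger definition of a gain, a peak in the top 25% of the mutant list and none in wild type, H2-Q6 was 1 of 96 regions (0.0787%) in NUP98-HOXD13 and 1 of 95 (0.0779%) in NUP98-HOXD13/Flt3-ITD. No other member region met that definition in these comparisons. With strong peaks taken as the top 10%, H2-Q6 met it in neither, and when a peak had to cover a share of 0.5 of the region, NUP98-HOXD13/Flt3-ITD did not hold it. The same region was held by the wild-type list of set 1, with a −log10 p of 125.7, so the wild-type lists of the 2 sets also differed at this site, although under that coverage requirement neither held it.

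The H2-Q7 region (chr17:35438772-35439774, 1003 bp) was held by all lists. Its fold enrichment was 18.3 in set-1 wild type, 20.5 in Flt3-ITD, 18.3 in Runx1-het and 25.3 in Flt3-ITD/Runx1-het. In set 2 it was 15.2 in wild type, 17.8 in NUP98-HOXD13, 9.93 in Flt3-ITD and 17.6 in NUP98-HOXD13/Flt3-ITD. As at H2-Q6, Flt3-ITD/Runx1-het had the highest fold of the 8 lists and the set-2 Flt3-ITD list the lowest fold among those with a peak. The rank of H2-Q7 in set 2 was 27.1% in wild type, 11.3% in NUP98-HOXD13, 41.7% in Flt3-ITD and 7.17% in NUP98-HOXD13/Flt3-ITD. In set 1, which has no fusion gene, it ran from 8.34% in Flt3-ITD/Runx1-het to 17.7% in wild type. The part that reads shared between the near-identical copies had in these values was not tested.

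H2-T23 encodes the Qa-1 chain, a ligand of inhibitory and activating receptors on natural killer cells. Its region (chr17:36031554-36033086, 1533 bp) had fold enrichments of 17.2 in set-1 wild type, 15.8 in Flt3-ITD, 14.3 in Runx1-het and 13.8 in Flt3-ITD/Runx1-het. In set 2 they were 17.7 in wild type, 11.4 in NUP98-HOXD13, 10.4 in Flt3-ITD and 12.5 in NUP98-HOXD13/Flt3-ITD. In both sets the wild-type value was the highest, an order seen at 10.6% of all start-site regions held by the 8 lists. Its ranks were 16.9% to 37.3%.

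B2m encodes the light chain shared by all of these heavy chains. Its region (chr2:122147251-122148203, 953 bp) had fold enrichments of 17.2 in set-1 wild type, 16.6 in Flt3-ITD, 18.8 in Runx1-het and 17.7 in Flt3-ITD/Runx1-het. The set-2 values were 19.8 in wild type, 15.8 in NUP98-HOXD13, 15.7 in Flt3-ITD and 15.3 in NUP98-HOXD13/Flt3-ITD. All 8 lists ranked it in their top 7.63%, although its −log10 p ran from 75.6 in set-2 Flt3-ITD to 506.7 in set-2 wild type. The −log10 p thus spread far more between lists than the fold, which ran from 15.3 to 19.8.

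Tap1 encodes a subunit of the peptide transporter. Its region (chr17:34186885-34188114, 1230 bp) also covers the start of Psmb9, a further immunoproteasome subunit that lies head to head with Tap1, so the same values belong to both genes. The fold enrichment was 13.4 in set-1 wild type, 15.2 in Flt3-ITD, 19.2 in Runx1-het and 17.0 in Flt3-ITD/Runx1-het. In set 2 it was 19.3 in wild type, 16.2 in NUP98-HOXD13, 13.8 in Flt3-ITD and 17.1 in NUP98-HOXD13/Flt3-ITD. The 3 mutant lists lay above wild type in set 1 and below it in set 2, as they did at 24.3% of all start-site regions held by the 8 lists, and the wild-type values of the sets, 13.4 and 19.3, were themselves the lowest and highest of the 8.

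Psmb8 encodes an immunoproteasome subunit. Its region (chr17:34197330-34198791, 1462 bp) had fold enrichments of 11.1 in set-1 wild type, 10.9 in Flt3-ITD, 10.1 in Runx1-het and 13.4 in Flt3-ITD/Runx1-het. In set 2 they were 9.42 in wild type, 9.72 in NUP98-HOXD13, 8.78 in Flt3-ITD and 9.12 in NUP98-HOXD13/Flt3-ITD. The highest summit lay up to 147 bp past the start in 5 lists, and up to 494 bp before it in the other 3, which were Flt3-ITD/Runx1-het, NUP98-HOXD13/Flt3-ITD and the Flt3-ITD list of set 2. This was the weakest start-site region of the members by median rank.

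Nlrc5 encodes the class I transactivator. The region over the low end of its span (chr8:94433652-94434733, 1082 bp) had fold enrichments of 25.8 in set-1 wild type, 20.7 in Flt3-ITD, 22.5 in Runx1-het and 23.95 in Flt3-ITD/Runx1-het. In set 2 they were 23.2 in wild type, 22.2 in NUP98-HOXD13, 18.4 in Flt3-ITD and 18.7 in NUP98-HOXD13/Flt3-ITD. In both sets the Flt3-ITD list had the lowest fold and wild type the highest, an order seen at 1.93% of start-site regions and 1.56% of other regions held by the 8 lists, and picked out after it was seen. All 8 lists ranked the peak in their top 8.35%.

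Other regions of the Nlrc5 window varied more. The region at chr8:94540821-94541915, inside the neighbouring gene Cpne2, was held by all lists, with ranks of 16.3% to 29.5% in the 4 set-1 lists. In set 2 its rank was 26.6% in wild type, 40.8% in NUP98-HOXD13, 33.4% in Flt3-ITD and 57.2% in NUP98-HOXD13/Flt3-ITD, with fold enrichments of 13.5, 7.92, 10.6 and 5.37. A region inside Nlrc5 (chr8:94491907-94492874) had fold enrichments of 12.9 to 16.4 in set 1 and set-2 wild type, against 10.4 in NUP98-HOXD13, 9.96 in Flt3-ITD and 6.92 in NUP98-HOXD13/Flt3-ITD. A nearby region inside the gene (chr8:94485161-94486418) was missing from NUP98-HOXD13 and set-2 Flt3-ITD and had its lowest fold, 4.42, in NUP98-HOXD13/Flt3-ITD. These 3 regions were singled out after their values were seen, and wild type having the highest fold of set 2 is the usual order: away from annotated starts, 14 of the 15 member regions held by all 8 lists had it, beside the 77.4% of all such regions given above.

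**Figure D2:**
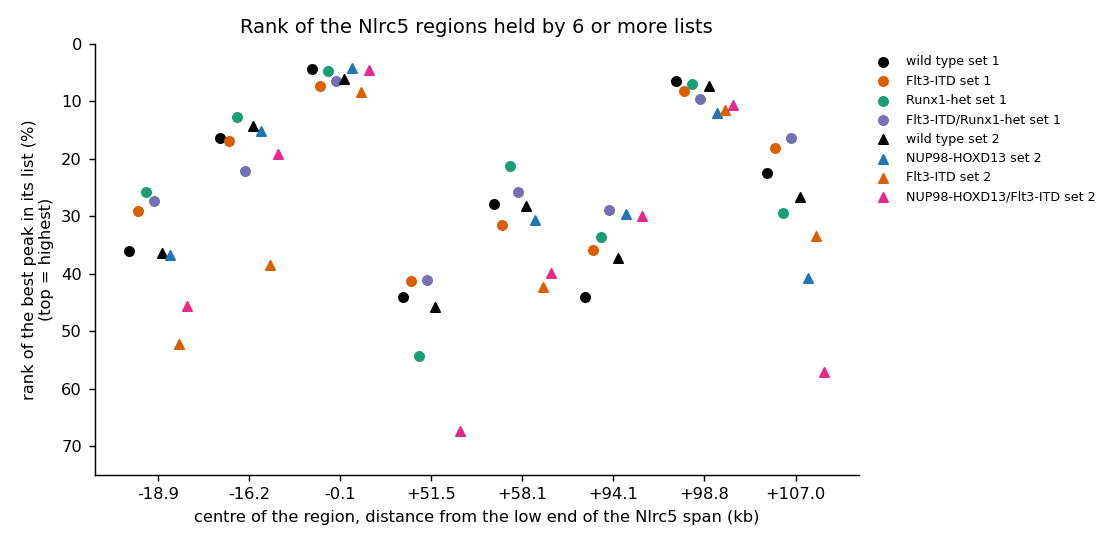
Rank of the best peak in its list (y axis, percent, strongest at the top) for the 8 regions of the Nlrc5 window held by 6 or more lists, placed by the distance of their centre from the low end of the Nlrc5 span (x axis, kb). Colours and shapes stand for the peak lists, and the NUP98-HOXD13/Flt3-ITD list lies at 57.2% at the region farthest to the right.

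Across all member regions, 26 of 61 (42.6%) were held by all 8 lists, against 34.1% of all regions. Of the member regions over any annotated start site, 11 of 15 (73.3%) were in all lists, against 80.0% of 13193. Away from start sites it was 15 of 46 (32.6%), against 28.5% of 108827. The median length of member regions was 647 bp, and that of all regions was 590 bp. Flt3-ITD/Runx1-het held 51 member regions (83.6%, against 66.7% of all regions), the most of the 8 lists. The other set-1 lists held 41 in wild type (67.2%, against 59.1%), 43 in Flt3-ITD (70.5%, against 65.4%) and 46 in Runx1-het (75.4%, against 67.8%). In set 2, wild type held 40 (65.6%, against 72.4%), NUP98-HOXD13 41 (67.2%, against 63.9%), Flt3-ITD 29 (47.5%, against 46.9%) and NUP98-HOXD13/Flt3-ITD 44 (72.1%, against 61.7%). Set-2 wild type was the only list whose share of member regions was below its share of all regions.

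The set-2 Flt3-ITD list stood apart: it held 84080 peaks, against 113325 to 138514 in the others, with a median −log10 p of 15.8, against 24.7 to 38.5. Read depth was unknown. It alone lacked 3 member regions (4.92%), and of all regions 5.6% were missing from it alone. These 3 were a region over the start of Trim69 near B2m, a region just past the high end of Nlrc5, and a region between H2-Q6 and H2-Q7. The part of list length in its lost regions was not tested directly, and counts from lists cut to equal length are given among the processing alternatives.

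As a check of the cell label, a start-site region was held by all 8 lists for 6 of 7 progenitor markers with an entry (Kit, Cd34, Flt3, Meis1, Runx1 and Myb, not Hoxa9). None of 3 B cell, 3 erythroid and 2 mature myeloid markers had one in all lists, and 1 of 4 T and NK cell markers did (Lck). Cd79a, a B cell marker, was held by 5 lists at ranks of 59.9% to 79.2%, and S100a8, a neutrophil gene, by 5 lists at 39.6% to 73.8%, including set-1 wild type but not set-2 wild type. Pax5, Ebf1, Klf1, Hbb-bs, Epor, Elane, Cd3e, Cd8a and Ncr1 had none in any list. The endothelial and stromal markers had no entry. In such bulk samples, a different mix of cells and a different state of the same cells cannot be told apart.

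For each mutant list, member regions held by it and missing from wild type of the same set are called gained, and the reverse lost. In set 1, Flt3-ITD gained 6 of the 61 (9.84%, against 13.6% of all regions) and lost 4 (6.56%, against 7.35%). Runx1-het gained 8 (13.1%, against 15% of all regions) and lost 3 (4.92%, against 6.31%). Flt3-ITD/Runx1-het gained 11 (18.0%, against 15.6%) and lost 1 (1.64%, against 7.94%). The gains of the 3 lists were near the share over all regions, and the losses of Flt3-ITD/Runx1-het were fewer than that share. The 3 comparisons share the wild-type list.

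In set 2, NUP98-HOXD13 gained 7 member regions (11.5%, against 8.85% of all regions) and lost 6 (9.84%, against 17.3%). Flt3-ITD gained 1 (1.64%, against 3.29%), the weak H2-Q6 peak, and lost 12 (19.7%, against 28.7%). NUP98-HOXD13/Flt3-ITD gained 9 (14.8%, against 8.09%) and lost 5 (8.20%, against 18.8%). All 3 set-2 lists lost a smaller share of member regions than of all regions. The gains of NUP98-HOXD13 and Flt3-ITD were near the share over all regions, and that of NUP98-HOXD13/Flt3-ITD was above it. These comparisons also share their wild-type list, the one with the low share of member regions.

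Lists of equal genotype from the 2 sets show how far lists differ without a change of genotype, though they also hold any difference between the sets. Set-2 wild type held 6 member regions that set-1 wild type lacked (9.84%, against 18.9% of all regions) and lacked 7 that it held (11.5%, against 5.63%). Set-2 Flt3-ITD held 0 that set-1 Flt3-ITD lacked (0%, against 4.4%) and lacked 14 that it held, beside 22.9% of all regions. In either direction, 13 member regions differed between the wild-type lists, and 10 to 14 differed between a mutant list and its own control. The shares of all regions are given above for each direction only, so these counts are descriptions and not a result about the members.

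**Figure D3:**
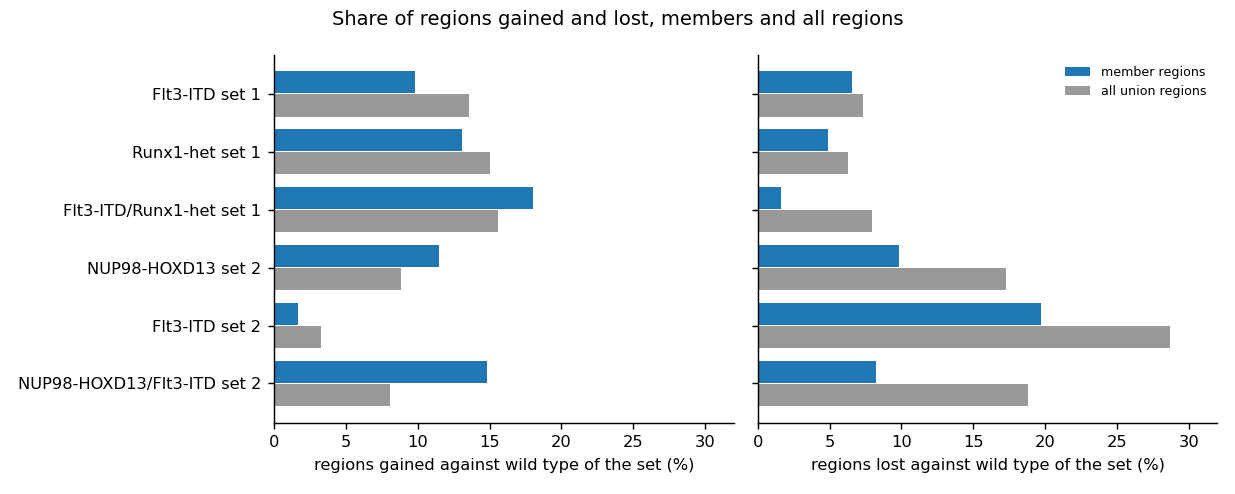
Share of regions gained (left) and lost (right) against wild type within each set (x axes, percent) for each mutant list (y axis), with blue bars for the 61 member regions and grey bars for all 122020 regions. The blue bar exceeds the grey one for gains in Flt3-ITD/Runx1-het and in both lists with NUP98-HOXD13, and it is the shorter bar for losses in all 6 lists.

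Regions that followed a mutation within a set were few. Both Flt3-ITD lists of set 1 and neither of the other lists held 1 member region (1.64%, against 2.79% of all regions), 6716 bp from Tap1 (chr17:34180489-34180840), with fold enrichments of 5.08 and 7.34. The reverse held for 0 members, against 1.78% of all regions. Both Runx1-het lists alone held 1 (1.64%, against 2.38%), 3691 bp past the end of H2-K1 (chr17:33991821-33992321), with fold enrichments of 9.87 in Runx1-het and 12.8 in Flt3-ITD/Runx1-het, and the reverse again held for 0, against 1.15%. In set 2, 0 members were held by the Flt3-ITD lists alone, against 0.452%. The lists without Flt3-ITD alone held 2 (3.28%, against 4.5%), the same H2-K1 region and one 5067 bp past H2-Q4 (chr17:35389741-35390114).

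Both NUP98-HOXD13 lists of set 2, and neither of the other set-2 lists, held 4 member regions (6.56%, against 2.8% of all regions), and the reverse held for 0, against 2.07%. All 4 lay in the windows of H2-D1, H2-Q4 and H2-Q6. The region 4581 bp before H2-D1 (chr17:35258021-35258513) had fold enrichments of 2.95 with NUP98-HOXD13 and 2.91 with NUP98-HOXD13/Flt3-ITD. The region 7200 bp past H2-D1 (chr17:35274697-35275285) had 8.77 and 6.69, and the one 9153 bp past H2-Q4 (chr17:35393827-35394241) had 5.63 and 7.83. The fourth, over the start of the predicted gene Gm32252 and 4054 bp before H2-Q6 (chr17:35420037-35420796), had 4.38 and 4.55. The strongest rank among them in those lists was 39.9%. Each was also held by at least 1 list of set 1, which has no fusion gene: the H2-Q4 and Gm32252 regions by all 4 set-1 lists, the one past H2-D1 by all but Flt3-ITD, and the one before it by Runx1-het alone.

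The stretch from the H2-D1 window to the H2-Q7 window, singled out after these values were seen, held 18 of the 61 regions. The wild-type list of set 1 held 11 of them, Runx1-het 15, Flt3-ITD 10 and the combination of both 11. The wild-type list of set 2 held 7, Flt3-ITD 6, NUP98-HOXD13 13 and its combination with Flt3-ITD 15. Of the 43 regions at the other members, set-2 wild type held 33, NUP98-HOXD13 28, Flt3-ITD 23 and NUP98-HOXD13/Flt3-ITD 29. In the H2-D1 to H2-Q7 stretch NUP98-HOXD13 gained 6 (33.3%, against 8.85% of all regions) and lost 0 (against 17.3%). NUP98-HOXD13/Flt3-ITD gained 9 of 18 there (against 8.09%) and lost 1 (5.56%, against 18.8%). Runx1-het, without the fusion gene, gained 5 there (27.8%, against 15%) and lost 1 (5.56%, against 6.31%). Set-1 Flt3-ITD gained 2 (11.1%, against 13.6%) and lost 3 (16.7%, against 7.35%). Set-2 Flt3-ITD gained 1 (5.56%, against 3.29%) and lost 2 (11.1%, against 28.7%). At the other members NUP98-HOXD13 gained 1 (2.33%) and lost 6 (14.0%), and NUP98-HOXD13/Flt3-ITD gained 0 and lost 4 (9.30%), shares below those over all regions. Because the stretch was picked for these values, the contrast is a description only. Set-2 wild type lacked 6 regions of the stretch that set-1 wild type held, and held 2 that it lacked, so the low count of this control moves with the gains of both NUP98-HOXD13 lists, and its part in them was not tested.

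**Figure D4:**
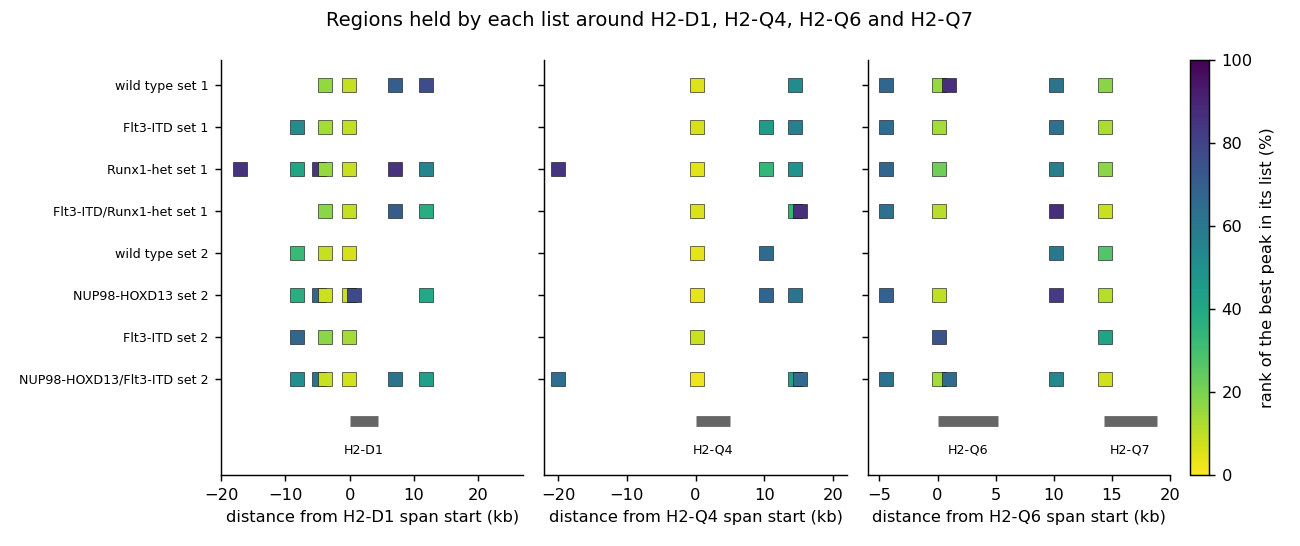
Regions of the H2-D1, H2-Q4, H2-Q6 and H2-Q7 windows (squares, at their centre) by distance from the span start of the gene named under each panel (x axis, kb) and by peak list (y axis), coloured by the rank of the best peak in its list (percent, yellow strongest), with gene spans as grey bars. The set-2 wild type and set-2 Flt3-ITD lists hold 7 and 6 of the 18 regions, against 13 and 15 in the NUP98-HOXD13 lists.

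Flt3-ITD/Runx1-het alone held 6 member regions (9.84%, against 3.42% of all regions). They lay near B2m (2 regions), inside Nlrc5 (2), near Tap1 (1) and near Psmb8 (1), with fold enrichments of 2.92 to 10.6 and ranks of 47.3% to 80.4%. None was at an H2 heavy-chain gene. At the members outside the H2-D1 to H2-Q7 stretch this list held 40 of 43 regions (93.0%, against 66.7% of all regions). It gained 10 of them (23.3%, against 15.6%) and lost 0 (against 7.94%). In that stretch it gained 1 of 18 (5.56%, against 15.6% of all regions) and lost 1 (5.56%, against 7.94%).

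Other genes of the pathway were counted from lists chosen with earlier results of these data known. Among 11 genes of peptide processing and loading, all 9 with an entry had a start-site region in all 8 lists. They included Psmb10 (immunoproteasome subunit), Tapbp (which bridges class I to the transporter), Calr, Canx and Pdia3 (chaperones of loading). Pdia3 ranked in the top 2.05% of every list and Tapbp at 15.6% to 41.6%. Among the regulators and interferon inputs, all 14 with an entry were held by all lists, among them Irf1, Irf2, Stat2, Rfx5, Ifnar1 and Ifngr1. For other class I and class I-like genes it was 5 of 9 with an entry (H2-T22, H2-M3, Mr1, Fcgrt and Hfe). H2-Q2 was missing from set-2 Flt3-ITD, H2-Q10 was held by NUP98-HOXD13 alone, and H2-T3 and H2-M2 by no list. For class II, whose products present peptides to CD4 T cells, it was 4 of 7 (H2-Aa, H2-Eb1, H2-DMa and H2-DMb1). The share of all protein-coding genes with a start-site region in all 8 lists was 57.4%, as given above.

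Over whole windows, some of which overlap those of the members (Psmb9 and Tap2 beside Tap1 and Psmb8, for example), the processing genes had 36 of 64 regions in all 8 lists (56.2%), the regulators 68 of 144 (47.2%), the other class I genes 32 of 74 (43.2%) and the class II genes 29 of 77 (37.7%), beside 34.1% of all regions. NUP98-HOXD13/Flt3-ITD gained 3, 11, 4 and 4 regions in these 4 lists (4.69%, 7.64%, 5.41% and 5.19%, against 8.09% of all regions). It lost 6, 15, 9 and 10 (9.38%, 10.4%, 12.2% and 13.0%, against 18.8%). For this genotype the share lost was, as at the members, below that over all regions in each gene list, but the share gained was not above it. Other genotypes differed. In the same order of gene lists, Flt3-ITD/Runx1-het gained 12.5%, 13.2%, 20.3% and 23.4% (against 15.6% of all regions). Set-2 Flt3-ITD lost 18.75%, 22.9%, 32.4% and 27.3% (against 28.7%).

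The share of member regions held, minus the share of all regions, was 8.11 percentage points in set-1 wild type, 5.11 in Flt3-ITD, 7.61 in Runx1-het and 16.9 in Flt3-ITD/Runx1-het. In set 2 it was -6.79 in wild type, 3.29 in NUP98-HOXD13, 0.627 in Flt3-ITD and 10.5 in NUP98-HOXD13/Flt3-ITD. Of 12653 protein-coding genes with at least 5 regions outside the member windows, those whose own profile over the 8 lists was most like it were Susd1 (Pearson's r 0.962), Rere (0.962), Tll2 (0.959), Cdc14a (0.952) and Sparc (0.950). These coefficients are descriptions over 8 lists, chosen as the highest of many and sharing the lists' lengths.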

How the data were processed

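Peak lists for 8 groups of 2 samples were used, 1 list per group, from calls described as pooled per the labels. Per the submitters' processing notes the tools were Bowtie2 and MACS2 and the builds mm10 and GRCm38. Versions, thresholds, read shifting and treatment of multiply aligned reads: not given in the sources used here. Each deposited peak has a fold enrichment (a ratio), a −log10 p, a −log10 q and a score by the authors. The deposited score, a whole number from 413 to 1000, was not used, and the labels do not explain it. Depth is unknown, so no interval is given.

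Peaks overlapping by at least 1 bp were merged over the 8 lists into regions, and a list held a region if it had a peak inside. Gene spans and start sites were those of GRCm38.p6, which gave no exons, introns or untranslated regions. Windows were gene spans with 20 kb added. All 10 members are described. Regions named by rule were those over a start site, those missing from at least 1 list and in the top 25% of another, and those that followed a mutation within a set. Others were chosen after their values were seen. The members and gene lists were chosen with earlier results of these data known. With 1 list per group no test was run. The merging was tested on simulated data. Python 3.11.15, pandas 2.3.3, numpy 2.4.6, Biopython 1.88 (alignment with free end gaps) and matplotlib 3.10.9 were used. Alternatives were a 5 kb margin, lists cut to 84080 peaks, a −log10 q of at least 10, a peak covering a share of at least 0.5 of the region, strong peaks as the top 10%, and leaving out the set-2 Flt3-ITD list.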

Additional observations from a re-analysis of the deposited data

Results flagged for a closer look

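At 3 member regions Flt3-ITD stood opposite to wild type in the 2 sets, with a peak gained in set 1 and lost in set 2. The region 12956 bp from Tap1 (chr17:34174056-34174600) had a −log10 p of 17.1 in set-1 Flt3-ITD and 36.9 in set-2 wild type, with no peak in the paired lists. The region 5067 bp past H2-Q4 (chr17:35389741-35390114) had 41.0 and 22.4 in the same lists. The region 5889 bp from H2-T23 (chr17:36023648-36024088) had 39.7 and 27.7. The regions near Tap1 and H2-T23 were held by every set-1 mutant list and by no set-2 mutant list, so there the order was not particular to Flt3-ITD. All 3 regions were missing from set-1 wild type and held by set-2 wild type. Only 1 region changed the same way, lost with Flt3-ITD in both sets (chr2:122137579-122138656, 9031 bp from B2m). The share of all regions with either pattern was not counted, and the difference between the sets was not tested.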

How the results depend on the processing

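No paired analysis was possible because each group has 1 pooled peak list and no test was run, and for the same reason no replicate could be left out. Of 70 counts recomputed under the alternatives, 48 stayed within 1.5 times the value given above and 22 did not. Shares of all regions under the same setting are given in brackets. With a 5 kb margin the member regions were 29 (15 in all 8 lists), fewer by construction. Gains were then 0 in set-1 Flt3-ITD (13.6%), 2 in Runx1-het (15%), 4 in Flt3-ITD/Runx1-het (15.6%), 4 with NUP98-HOXD13 (8.85%) and 5 with NUP98-HOXD13/Flt3-ITD (8.09%). Losses were 2 in set-1 Flt3-ITD (7.35%), 1 in NUP98-HOXD13 (17.3%), 5 in set-2 Flt3-ITD (28.7%) and 1 in NUP98-HOXD13/Flt3-ITD (18.8%). With lists cut to equal length, 51 member regions were left of 95895. Gains were 3 in set-1 Flt3-ITD (10.6%), 5 in Runx1-het (9.68%) and 2 in set-2 Flt3-ITD (7.54%), and losses were 2 in set-1 Flt3-ITD (8.08%), 3 in Flt3-ITD/Runx1-het (9.07%) and 7 in set-2 Flt3-ITD (18.8%). With a −log10 q of at least 10, which left 58 member regions, gains were 5 in Runx1-het (13.7%) and 0 in set-2 Flt3-ITD (0.756%). With a peak required to cover a share of 0.5 of the region, losses were 3 in Flt3-ITD/Runx1-het (9.90%) and gains 0 in set-2 Flt3-ITD (3.72%). With strong peaks taken as the top 10%, the strong gains or losses at members were 0 instead of 2. The cause was not tested for these. Leaving out the set-2 Flt3-ITD list left all 12 recomputed counts within 1.5 times, and these are among the 48. The gains and losses among them compare other lists, so they could hardly move and say little about stability. Member regions held by all remaining lists were 29.

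The H2-Q6 start-site region was missing from set-2 wild type under each alternative run. None of the alternatives can add a peak to a list, so that outcome was fixed in advance. With the −log10 q minimum the region was also missing from set-2 Flt3-ITD. With the coverage requirement it was also not held by set-1 wild type, NUP98-HOXD13/Flt3-ITD and the Flt3-ITD list of set 2. Depth limits every count of missing peaks: a missing peak is one not listed, not a closed site.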
